A study of Mus musculus with 4 samples.

Results

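The 10 genes described here encode secreted or secretion-linked proteins of innate defence in the airway. They were chosen by name from 33697 measured features, and each had at least 1 UMI (unique molecular identifier, a count of 1 captured RNA molecule) in each of the 4 libraries. Single-cell RNA was measured in mouse trachea, cut under a stereomicroscope into a dorsal and a ventral part, with 1 library for each region and genotype. The knockout mice carried Ctnnb1-fl/fl together with the driver P63-CreER, the reporter Rosa26-rsr-GFP and Ki67-lsl-Dre, and the control mice carried Ctnnb1-fl/+ with the same 3 other alleles. Knockout and control mice alike received tamoxifen, so controls also had active Cre and 1 floxed allele, and tissue was taken 10 days later. Cre in these mice acts in cells that express P63 when tamoxifen is given, the basal stem cells of the epithelium. Their later progeny inherit the recombined allele, and how many cells of the other classes descend from them was not determined here. The labels do not state the age or sex of the mice, nor how many were pooled into a library.

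Airway secretory cells and submucosal glands coat the surface with a fluid that carries several classes of defence protein. Collectins bind sugars on microbes, C-type lectins such as Reg3g attack the wall of gram-positive bacteria, lysozymes cut peptidoglycan, and peptidoglycan recognition proteins bind it. Lactoferrin and lipocalin 2 withhold iron, antiproteases limit damage from neutrophil enzymes, and the polymeric immunoglobulin receptor carries IgA across the epithelium.

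Every comparison below is between 2 single libraries, so no test was possible and intervals at 95% cover counting error only. Levels are given as CPM, the UMIs of a gene per 1000000 UMIs of a cell class in a library. Total UMIs ranged from 144851737 to 286711618 per library, and the cells kept numbered 6129 in knockout dorsal, 12970 in control dorsal, 6545 in knockout ventral and 9364 in control ventral tissue. Libraries shared 21 to 57 cell barcodes per pair, at most 0.511% of the smaller one. In basal cells Ctnnb1, the targeted gene, had 207 CPM in knockout and 287 CPM in control dorsal tissue, and 232 CPM in knockout and 290 CPM in control ventral tissue. Fibroblasts had 94.2 CPM in knockout and 129 CPM in control dorsal tissue, and 131 CPM in knockout and 151 CPM in control ventral tissue. The labels do not say which exons were deleted, and reads start at the 5′ end of transcripts, so these levels do not check the deletion.

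Cells were put into classes by marker UMIs. The secretory class (Scgb1a1 or Scgb3a1, secretoglobins of club and mucous cells) held 1309 knockout and 3629 control dorsal cells, and 872 knockout and 1494 control ventral cells. The basal class (Trp63 and Krt5) held 1008 knockout and 1942 control dorsal cells, and 660 knockout and 963 control ventral cells. Scgb1a1 exceeded Scgb3a1 in 98.2% of knockout and 98.6% of control dorsal secretory cells, against 34.9% of knockout and 43.0% of control ventral ones. The ventral secretory class also held Tff2, a trefoil factor of mucous gland cells, at 11088 CPM in knockout and 27429 CPM in control tissue, against 20.8 and 78.3 CPM in the knockout and control dorsal classes.

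The gland class (Dmbt1) held 778 knockout and 1179 control ventral cells, with the gland genes Lipf at 145818 CPM in knockout and 91117 CPM in control cells and Sox9 at 43.5 CPM in knockout and 35.7 CPM in control cells. In dorsal tissue the same gate held 33 knockout and 48 control cells, in which Sox9 had 0 UMIs and Scgb1a1 stood at 199647 CPM in knockout and 127939 CPM in control cells. These dorsal cells went against the gland label and are not described as gland. The ciliated class (Tmem212) of dorsal tissue carried Scgb1a1 at 49226 CPM in knockout and 25323 CPM in control cells, so ciliated values below leave out cells that also met a secretory gate, a choice made after seeing the data. That left 102 knockout and 963 control dorsal cells, and 164 knockout and 385 control ventral cells. Hillock cells (Krt13 and Krt4) numbered 278 in knockout and 953 in control dorsal tissue and 75 in control ventral tissue. Knockout ventral tissue had 8 of them, too few for a value. Unlike the ciliated values, hillock values keep cells that also met a secretory gate, and the part of such cells in them was not tested.

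Fibroblasts (Col1a2) served as the measure of free RNA, the RNA of broken cells that enters every droplet. For the 8 members other than Lcn2 and Slpi, the fibroblast level was 0.171% to 4.89% of the secretory level in the same library. For Slpi it was 31.7% to 94.7%. For Lcn2 it was 14.8% in knockout and 80.7% in control dorsal tissue, and 2.94% in knockout and 6.56% in control ventral tissue, so dorsal Lcn2 and Slpi stand less clear of fibroblasts than the rest.

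**Figure D1:**
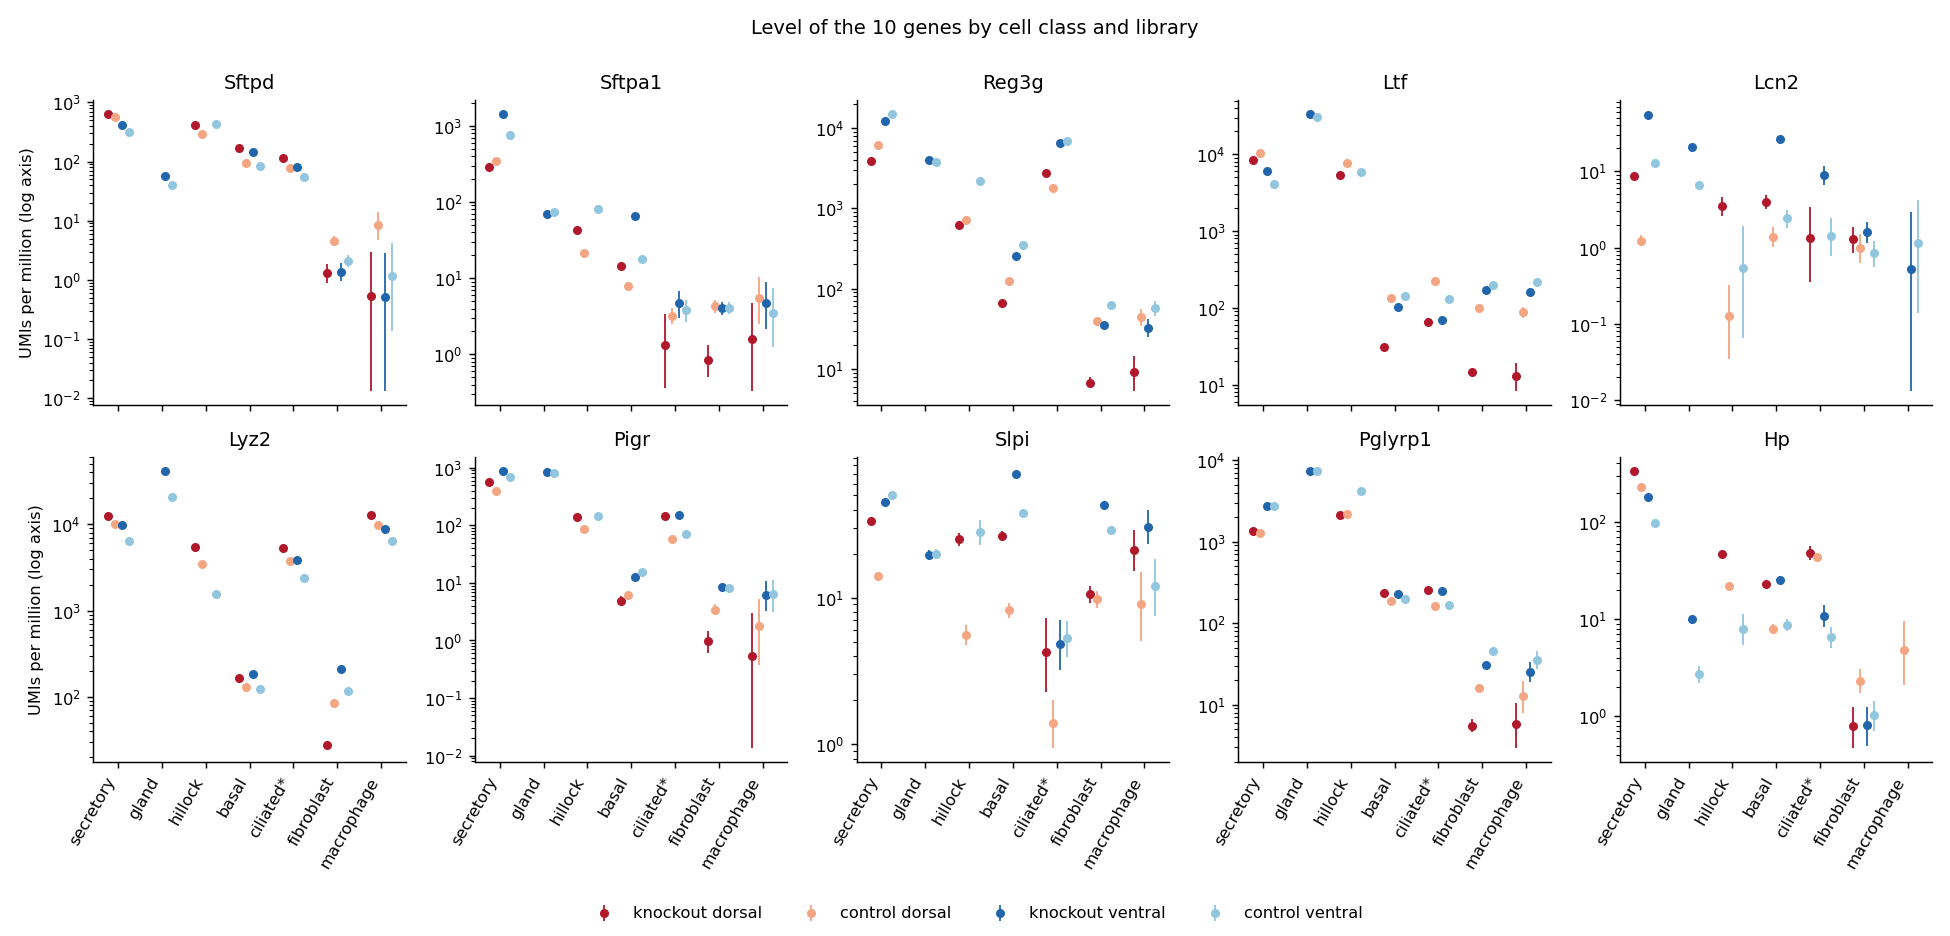
Level of each gene (CPM, log axis) by cell class, with 1 point per library and a 95% Poisson interval. Classes under 50 cells and levels of 0 are not drawn, and ciliated* leaves out cells that met a secretory gate. Secretory and gland cells hold the upper points of most genes, for example 15110 CPM of Reg3g in control ventral secretory cells, while Slpi reaches similar levels in secretory cells, basal cells and fibroblasts.

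The 2 collectins differed in where along the trachea they were high. Sftpd, surfactant protein D, had 640 CPM in knockout and 560 CPM in control dorsal secretory cells, and 422 CPM in knockout and 314 CPM in control ventral ones. Sftpa1, surfactant protein A1, had 288 CPM in knockout and 348 CPM in control dorsal secretory cells, and 1427 CPM in knockout and 760 CPM in control ventral ones. Sftpd was thus higher dorsally and Sftpa1 higher ventrally in both genotypes.

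Sftpd was also the more widely spread of the collectins. Basal cells held it at 170 CPM in knockout and 94.0 CPM in control dorsal tissue, and at 147 CPM in knockout and 84.4 CPM in control ventral tissue, while fibroblasts had 1.33 to 4.53 CPM. In hillock cells, Sftpd had 408 CPM in knockout and 296 CPM in control dorsal tissue and 436 CPM in control ventral tissue. To compare shares of cells across depths, 5000 UMIs were drawn from every cell, which set aside cells with fewer, 0 to 26 basal cells and 90 to 182 fibroblasts per library. By this measure 46.3% of knockout and 29.9% of control dorsal basal cells had a Sftpd UMI, against 0.506% and 1.89% of fibroblasts of those libraries. Unthinned, the shares were 77.7% of knockout and 55.6% of control dorsal basal cells, and 1.33% and 3.32% of fibroblasts. Sftpa1 was found in 3.98% of knockout and 3.34% of control dorsal basal cells, against 0.393% and 1.71% of fibroblasts. Ventral glands held little of either collectin, with Sftpd at 56.6 CPM in knockout and 40.2 CPM in control cells and Sftpa1 at 69.6 CPM in knockout and 74.1 CPM in control cells.

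Reg3g, the C-type lectin active against gram-positive bacteria, was highest in ventral secretory cells, at 12252 CPM in knockout and 15110 CPM in control tissue. Dorsal secretory cells had 3855 CPM in knockout and 6105 CPM in control tissue. Ciliated cells came next. They held 2791 CPM in knockout and 1785 CPM in control dorsal tissue, and 6539 CPM in knockout and 6900 CPM in control ventral tissue, where fibroblasts had 6.77 to 63 CPM over the 4 libraries.

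Lyz2, a lysozyme that macrophages also make, was present in ciliated cells too. Its level there was 5327 CPM in knockout and 3778 CPM in control dorsal cells, and 3805 CPM in knockout and 2407 CPM in control ventral cells. Reg3g did not stand to Ltf in ciliated cells in the proportion of secretory cells or fibroblasts. A Reg3g UMI was found in 76.5% of knockout and 87.3% of control dorsal ciliated cells and in 88.4% of knockout and 93.5% of control ventral ones before thinning, against 7.15% to 46.7% of fibroblasts. The UMIs of Reg3g per UMI of Ltf were 43.2 in knockout and 8.07 in control dorsal ciliated cells, against 0.453 and 0.587 in secretory cells and 0.461 and 0.404 in fibroblasts of those libraries. In ventral tissue the same quotient was 93.4 in knockout and 53.5 in control ciliated cells, against 2.03 and 3.72 in secretory cells and 0.204 and 0.317 in fibroblasts. Ltf itself had 64.7 CPM in knockout and 221 CPM in control dorsal ciliated cells, above the 14.7 and 98.3 CPM of fibroblasts, and 70.0 CPM in knockout and 129 CPM in control ventral ones, under the 170 and 198 CPM of fibroblasts. Sftpa1 had 1.31 to 4.67 CPM in ciliated cells and 0.840 to 4.27 CPM in fibroblasts.

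**Figure D2:**
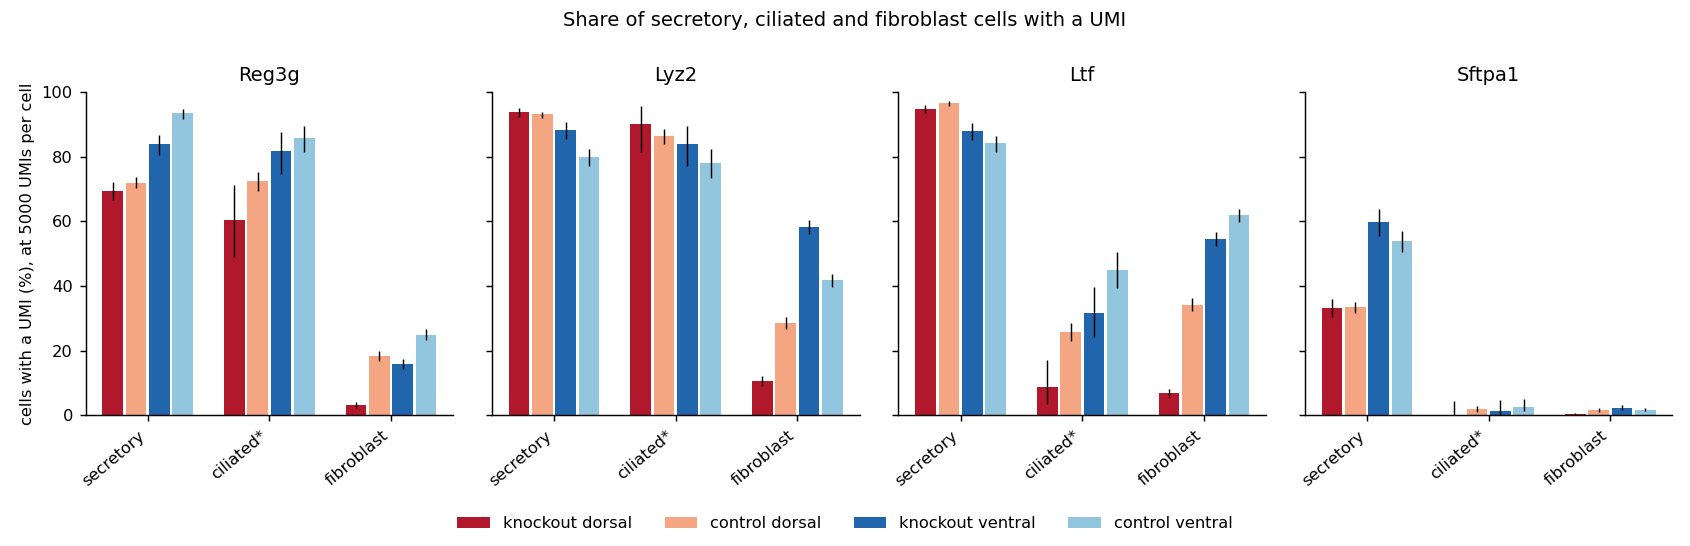
Share of secretory, ciliated and fibroblast cells with at least 1 UMI of 4 genes (percent), each cell thinned to 5000 UMIs, with exact 95% binomial intervals over cells; ciliated* leaves out cells that met a secretory gate. Reg3g was found in 60.5% to 85.8% and Lyz2 in 78.2% to 90.1% of ciliated cells, while the Ltf and Sftpa1 shares of ciliated cells lie near or below those of fibroblasts.

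Lactoferrin (Ltf), which binds iron, was most abundant in ventral gland cells, at 33737 CPM in knockout and 30424 CPM in control tissue. Secretory cells had 8508 CPM in knockout and 10409 CPM in control dorsal tissue, and 6049 CPM in knockout and 4058 CPM in control ventral tissue. In the ventral secretory class Ltf was uneven: the 10% of cells with the most Ltf held 65.1% of its UMIs in knockout and 60.1% in control tissue at equal depth, against 25.9% and 24.8% in dorsal knockout and control cells. Hillock cells held 5366 CPM in knockout and 7668 CPM in control dorsal tissue and 5811 CPM in control ventral tissue. Basal cells had 30.8 CPM in knockout and 132 CPM in control dorsal tissue, where fibroblasts had 14.7 and 98.3 CPM. In ventral tissue basal cells had 103 CPM in knockout and 140 CPM in control tissue, under the 170 and 198 CPM of fibroblasts.

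Lyz2 was likewise highest in ventral glands, at 41685 CPM in knockout and 20404 CPM in control cells. Secretory cells had 12392 CPM in knockout and 10026 CPM in control dorsal tissue, and 9873 CPM in knockout and 6386 CPM in control ventral tissue. Macrophages, with 12823 CPM in knockout and 9910 CPM in control dorsal tissue and 8894 CPM in knockout and 6472 CPM in control ventral tissue, stood within 1.5-fold of the secretory cells of their own library. The related Lyz1 was found mainly in ventral glands, at 19107 CPM in knockout and 4253 CPM in control cells. Secretory cells had 3.45 CPM of Lyz1 in knockout and 4.47 CPM in control dorsal tissue, and 55.7 CPM in knockout and 30.3 CPM in control ventral tissue.

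Lyz1 and Lyz2 lie next to each other on chromosome 10 and share sequence where these reads start, which bears on how far their counts can be told apart. The first 50 transcribed bases of each are shown from RefSeq on GRCm38.p6, a build other than the GRCm39 of the files, with the base that differs in capitals.
Lyz2 (chr10:117282223-117282272, minus strand): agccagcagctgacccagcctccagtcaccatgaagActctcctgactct
Lyz1 (chr10:117292819-117292868, minus strand): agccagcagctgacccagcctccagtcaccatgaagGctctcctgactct
They differ by A37G (the base of Lyz2, the position counted from 1 at the start, the base of Lyz1), and the first start codon begins at position 31 in both. The 250 bases before the start were the same at 60.8% of positions when set side by side without gaps. A read that lies within the shared bases before position 37 fits both genes, and how such reads were counted was not tested. The Lyz1 and Lyz2 levels of ventral glands are therefore uncertain as separate values, to an extent that was not tested. In dorsal secretory cells, with Lyz2 at 12392 CPM in knockout and 10026 CPM in control tissue, Lyz1 had 3.45 and 4.47 CPM.

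Pglyrp1, a peptidoglycan recognition protein, was highest in gland cells and higher in hillock than in secretory cells. Ventral gland cells had 7463 CPM in knockout and 7384 CPM in control tissue. Hillock cells held 2120 CPM in knockout and 2216 CPM in control dorsal tissue, above the 1339 and 1279 CPM of the secretory cells of those libraries, and 4220 CPM in control ventral tissue, where secretory cells had 2769 CPM. Pigr, the immunoglobulin transporter, had near equal levels in ventral glands, at 849 CPM in knockout and 812 CPM in control cells, and ventral secretory cells, at 887 CPM in knockout and 702 CPM in control cells. Dorsal secretory cells had 570 CPM of Pigr in knockout and 391 CPM in control tissue. Ciliated cells held Pigr at 143 CPM in knockout and 58.4 CPM in control dorsal tissue and at 150.1 CPM in knockout and 71.7 CPM in control ventral tissue, above the fibroblast range of 0.973 to 8.43 CPM.

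Within ventral gland cells, those with more Ltf tended to have less Reg3g. Across cells of equal depth, Spearman's rho between Reg3g and Ltf was -0.36 in 599 knockout and -0.46 in 766 control gland cells, and -0.29 in 588 knockout and -0.28 in 917 control ventral secretory cells. In dorsal secretory cells it was -0.20 in 1172 knockout and -0.51 in 3039 control cells. The pair Reg3g and Sftpa1 ran the other way, with rho from 0.33 to 0.58 in secretory cells of the 4 libraries. These cells share a library, so the values describe the cells and carry no test. In clusters made without the members, a cluster led by the gland genes Dcpp3, Dcpp2 and Lipf had 35933 CPM of Ltf, 41063 CPM of Lyz2 and 132 CPM of Reg3g, and a cluster led by Tff2 and Muc5b had 27258 CPM of Ltf, 3424 CPM of Lyz2 and 11724 CPM of Reg3g.

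The members also differed in the share of secretory cells with a UMI. At 5000 UMIs per cell, which left out 137 knockout and 590 control dorsal and 284 knockout and 577 control ventral cells, Pglyrp1 was found in 94.6% to 95.5% of cells. Hp was found in 50.7% of knockout and 42.0% of control dorsal cells, and in 27.4% of knockout and 16.6% of control ventral cells. Lcn2 was found in 3.07% of knockout and 0.461% of control dorsal cells, and in 12.9% of knockout and 3.38% of control ventral cells. Reg3g, found in 69.5% of knockout and 72.0% of control dorsal cells, was more frequent in ventral tissue, at 83.8% of knockout and 93.3% of control cells.

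Haptoglobin (Hp), the haemoglobin binder best known as a liver acute-phase protein, lay mostly in the secretory class. That class held 77.9% to 87.2% of the Hp UMIs of a library. The whole secretory class had 334 CPM in knockout and 228 CPM in control dorsal tissue, and 180 CPM in knockout and 98.1 CPM in control ventral tissue. In ventral tissue, cells with Scgb1a1 above Scgb3a1 had 272 CPM in knockout and 165 CPM in control tissue, against 93.0 CPM in knockout and 17.1 CPM in control cells with Scgb3a1 at or above Scgb1a1. Gland cells had 9.96 CPM in knockout and 2.72 CPM in control ventral tissue. Among clusters, one led by Scgb3a1 and Scgb1a1 had 220 CPM of Hp. Those led by Scgb1a1 and Bpifa1 and by Scgb1a1 and Scgb3a2 had 199 and 260 CPM, and the one led by Tff2 and Muc5b had 0.957 CPM. The part of such Tff2 cells in the ventral contrast was not tested.

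Lcn2, the siderophore binder lipocalin 2, lay mostly outside the epithelium. Secretory cells held 8.68 CPM in knockout and 1.23 CPM in control dorsal tissue, and 54.0 CPM in knockout and 12.9 CPM in control ventral tissue. Of the Lcn2 UMIs, 61.8% in knockout and 79.3% in control dorsal tissue, and 76.5% in knockout and 83.6% in control ventral tissue, were in cells that met no gate. Most of these were cells with at least 2 UMIs each of Lyve1 and Mmrn1, genes of lymphatic endothelium, a group singled out after seeing the values. It held 1978 CPM in 38 knockout and 988 CPM in 60 control dorsal cells, and 2521 CPM in 236 knockout and 1162 CPM in 234 control ventral cells. In ventral tissue 97.8% of these knockout cells and 93.2% of these control cells had an Lcn2 UMI at 5000 UMIs per cell (96.2% and 94.9% unthinned), against 0.790% and 0.0818% of fibroblasts. Clustering placed the same signal in a cluster led by Ccl21a, Nts, Lyve1, Vim and Mmrn1, at 1632 CPM. The summed level of the 7 neutrophil markers listed, neutrophils being a well-known source of Lcn2, was 0 CPM in the knockout and control dorsal Lyve1 and Mmrn1 cells, and 0.954 CPM in knockout and 0.341 CPM in control ventral ones. In secretory cells it was 0.135 CPM in knockout and 0.238 CPM in control dorsal tissue, and 0.496 CPM in knockout and 0.146 CPM in control ventral tissue.

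**Figure D3:**
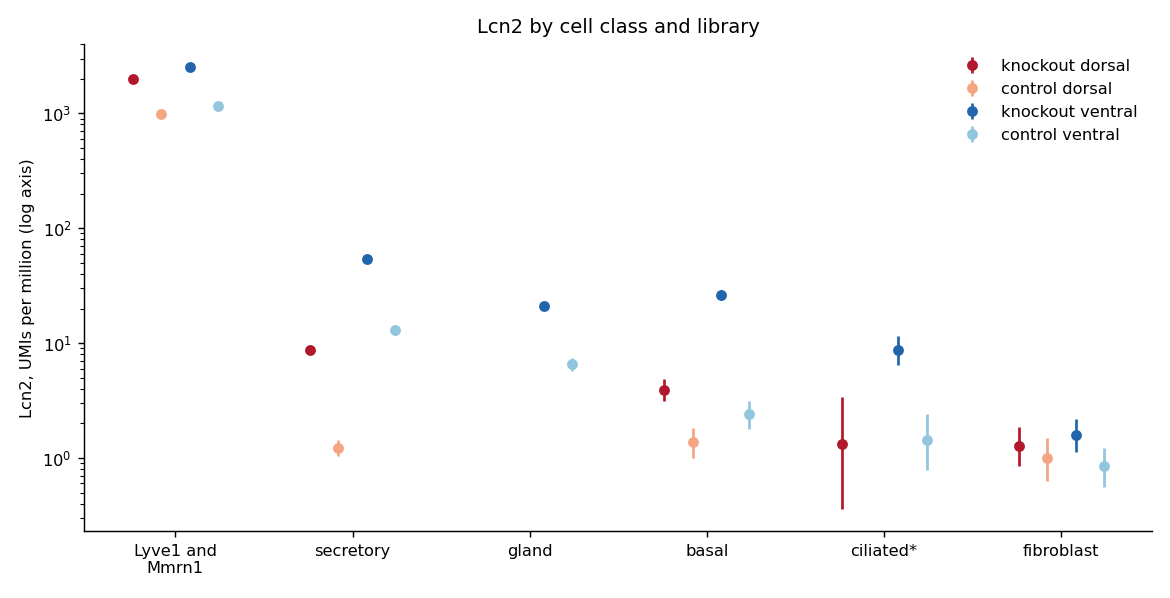
Lcn2 (CPM, log axis) by class and library with 95% Poisson intervals; the knockout dorsal point of the Lyve1 and Mmrn1 class rests on 38 cells, a level of 0 (control dorsal ciliated cells) is not drawn, and ciliated* leaves out cells that met a secretory gate. The Lyve1 and Mmrn1 cells stand between 988 and 2521 CPM, and knockout points lie above control points in every class where both are drawn, fibroblasts included.

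Within the epithelium Lcn2 was carried by few cells. In knockout ventral tissue 216 of 872 secretory cells had an Lcn2 UMI, up to 180 in 1 cell, and the 10% of cells with the most held 85.8% of the UMIs. In control ventral tissue 144 of 1494 secretory cells had one, up to 41 in 1 cell. Slpi, an antiprotease, was low in all classes. Secretory cells had 33.4 CPM in knockout and 14.0 CPM in control dorsal tissue, and 45.2 CPM in knockout and 49.9 CPM in control ventral tissue. Fibroblasts had 10.6 CPM in knockout and 9.75 CPM in control dorsal tissue, and 42.8 CPM in knockout and 29.1 CPM in control ventral tissue. At 5000 UMIs per cell, 14.6% of knockout and 10.5% of control ventral fibroblasts had a Slpi UMI, against 0 of 179 knockout and 0 of 176 control Lyve1 and Mmrn1 cells, whose intervals reach 2.04% and 2.07%. Slpi in ventral fibroblasts was thus above its level in another class outside the epithelium. The highest Slpi levels among clusters were 113 CPM in one led by the thyroid gene Tg and 107 CPM in one led by the taste-signalling gene Gnat3.

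Knockout and control secretory cells were then compared within each region. A member is called higher or lower where the ratio of its levels was at least 1.5 or at most the inverse of that, with at least 50 UMIs over the pair. In dorsal secretory cells 2 members were higher in the knockout library, Lcn2 and Slpi, where 7.33% of the 15228 genes measured were higher. Reg3g was lower there, where 16.0% of all genes were lower. The median log2 ratio was 0.25 over the members and -0.14 over all genes measured. Under median-of-ratios size factors, which shift each gene of this comparison by 0.10 on the log2 scale, 4 members were higher and 0 lower, as Pigr and Hp passed 1.5-fold and Reg3g reached 0.678.

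Lcn2 had 7.06 times the control level in knockout dorsal secretory cells (interval 5.89 to 8.50) and Slpi 2.38 times (2.24 to 2.54). In fibroblasts of the same libraries the ratios were 1.29 (0.722 to 2.34) for Lcn2 and 1.08 (0.900 to 1.31) for Slpi. Pigr, at 1.46 (1.44 to 1.48), and Hp, at 1.46 (1.44 to 1.49), lay just under the threshold. Reg3g was at 0.631 (0.629 to 0.634) of the control level. The remaining 5 lay between 0.817 for Ltf and 1.24 for Lyz2. By clusters, the make-up of dorsal secretory cells also differed. The cluster led by Scgb1a1 and Scgb3a2, with 11746 CPM of Reg3g, held 202 knockout and 1661 control dorsal cells. One led by Scgb1a1 and Bpifa1, at 3933 CPM, held 802 and 769, and one led by Scgb3a1 and Scgb1a1, at 17758 CPM, held 260 and 175. The part of make-up in the dorsal ratios was not tested. Secretory cells of the knockout dorsal library were deeper, with a median of 45744 UMIs against 33417 in the control library, and the part of depth in these ratios was not tested.

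In ventral secretory cells 4 members were higher in the knockout library, where 3.52% of 14142 genes were, and 0 were lower, where 6.34% were. Lcn2 stood at 4.19 times the control level (3.80 to 4.63), Sftpa1 at 1.88 (1.85 to 1.91), Hp at 1.84 (1.77 to 1.92) and Lyz2 at 1.55 (1.54 to 1.55). Ltf, at 1.49 (1.48 to 1.5), fell just short, and Slpi was at 0.906 (0.846 to 0.969). Lcn2 in ventral fibroblasts was also higher, at 1.88 (1.13 to 3.17) on 39 knockout and 28 control UMIs. Knockout ventral secretory cells were deeper too, with a median of 14944.5 UMIs against 8856.5. In those with Scgb1a1 above Scgb3a1 the medians were 47226 and 16659. Ventral gland cells (17573.5 against 8891) and dorsal hillock cells (45608 against 28151) were also deeper in the knockout. The part of depth in the ratios of these classes was not tested. The make-up of the class differed between the libraries, with the smaller share of Scgb1a1-dominant cells in the knockout. Within ventral cells with Scgb1a1 above Scgb3a1 the ratio of Lcn2 was 2.12 (1.80 to 2.50), of Ltf 1.04 (1.03 to 1.05) and of Lyz2 1.79 (1.78 to 1.81). Within those with Scgb3a1 at or above Scgb1a1 it was 5.52 (4.85 to 6.30) for Lcn2, 1.82 (1.81 to 1.84) for Ltf and 5.44 (4.82 to 6.16) for Hp. Lcn2, Sftpa1 and Hp thus stayed at or above 1.5-fold in both kinds of ventral secretory cell, while Ltf did so in 1 of them. This split does not set apart cells with Tff2. The cluster led by Tff2 and Muc5b, 50.7% of it secretory by gate, held 133 knockout and 291 control ventral cells. It had 0.957 CPM of Hp, 3.16 of Sftpa1, 8.83 of Sftpd and 1.77 of Lcn2, but 27258 of Ltf. The part of such cells in these ratios was not tested. Lyz2, at 1.33 (1.32 to 1.34), was inside the threshold in cells with Scgb3a1 at or above Scgb1a1, and Sftpd was past it there, at 1.90 (1.83 to 1.98), but not in the others, at 1.13 (1.10 to 1.17).

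**Figure D4:**
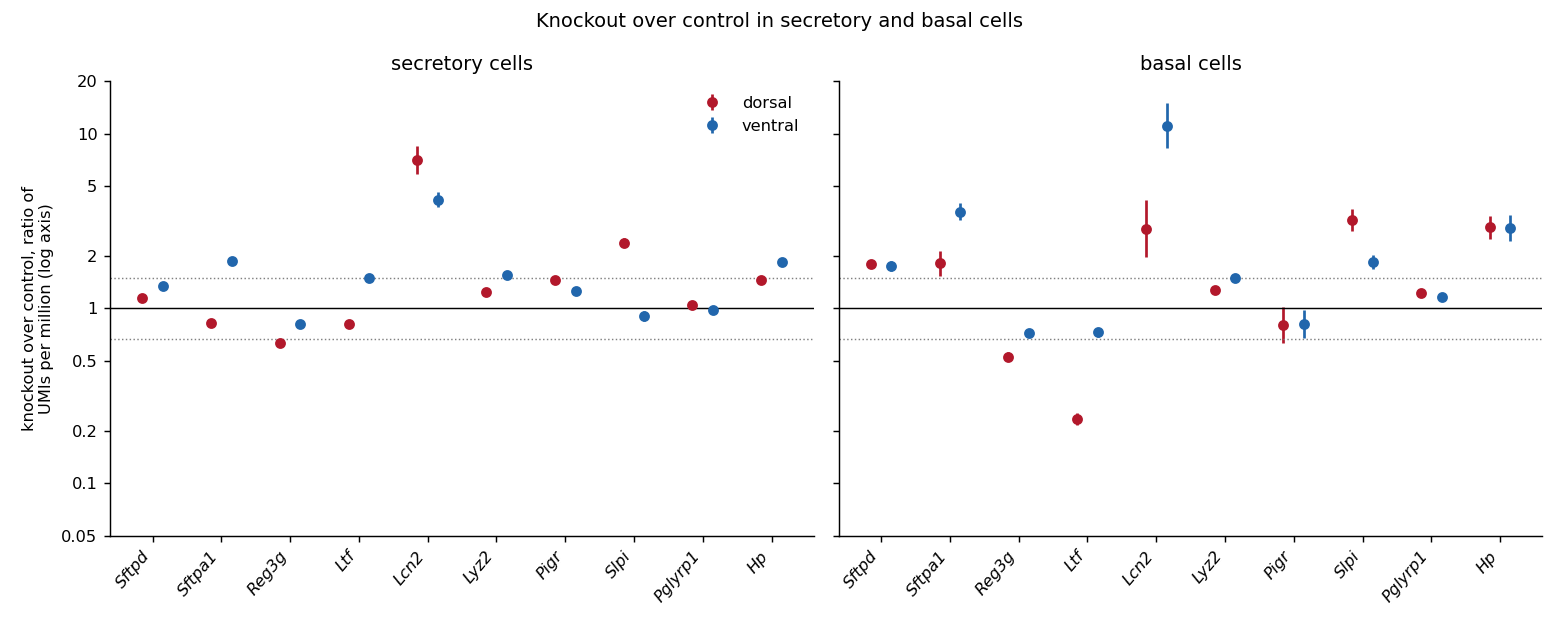
Ratio of knockout to control level (log axis) of each gene in secretory and basal cells, dorsal and ventral, with 95% conditional binomial intervals for counting error; dotted lines mark 1.5-fold either way. Lcn2 lies above 1.5 in the 4 comparisons shown, between 2.86 and 11.0, and Reg3g lies below 1 in the same 4, between 0.529 and 0.811.

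Basal cells express P63, which drives the Cre of these mice. In dorsal basal cells 5 members were higher in the knockout library (8.82% of 13510 genes) and 2 were lower (17.5%), and in ventral basal cells 5 were higher (2.86% of 13267 genes) and 0 lower (4.58%). The same 5 genes, Sftpd, Sftpa1, Lcn2, Slpi and Hp, were the higher ones in both regions. The median log2 ratio of the members was 0.60 dorsally and 0.69 ventrally, against -0.12 and -0.01 over all genes. Hp had 23.2 CPM in knockout and 7.94 CPM in control dorsal cells, a ratio of 2.92 (2.51 to 3.40), and 25.4 CPM in knockout and 8.81 CPM in control ventral cells, a ratio of 2.88 (2.42 to 3.44). Sftpd was at 1.80 (1.72 to 1.89) dorsally and 1.75 (1.64 to 1.86) ventrally. Fibroblasts went the other way for these 2 genes, with ratios of 0.342 (0.189 to 0.592) and 0.293 (0.188 to 0.443) dorsally for Hp and Sftpd.

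Lcn2 in basal cells had 3.93 CPM in knockout and 1.37 CPM in control dorsal tissue, a ratio of 2.86 (1.97 to 4.18), and 26.4 CPM in knockout and 2.40 CPM in control ventral tissue, a ratio of 11.0 (8.26 to 14.9). Slpi was at 3.21 times the control level dorsally (2.77 to 3.72) and 1.85 ventrally (1.69 to 2.03), where fibroblasts had 1.47 (1.34 to 1.60). The 2 members lower in dorsal basal cells were Ltf, at 0.232 (0.214 to 0.252), and Reg3g, at 0.529 (0.498 to 0.561). Fibroblasts of those libraries had 0.149 (0.133 to 0.168) and 0.170 (0.143 to 0.202) for the same genes, so their level in basal cells moved with that of free RNA, whose part in the result was not tested. With the fibroblast level subtracted, 1 of the 2, Ltf, was still lower. Sftpa1, at 1.81 (1.53 to 2.14) dorsally and 3.58 (3.19 to 4.03) ventrally, turned to 0.840 dorsally when basal cells were taken from clusters.

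In ventral gland cells 3 members were higher in the knockout library (2.60% of 13092 genes) and 0 lower (8.94%). They were Hp at 3.66 (2.89 to 4.68), Lcn2 at 3.22 (2.76 to 3.77) and Lyz2 at 2.04 (2.04 to 2.05). Lyz1 was at 4.49 times the control level there (4.47 to 4.52). The part in the 2 increases of reads in the bases that Lyz1 shares with Lyz2 was not tested. Ltf, Reg3g, Pigr and Pglyrp1, the other abundant members of gland cells, lay between 1.01 and 1.11. The gland class had Hp at 9.96 CPM in knockout and 2.72 CPM in control cells, and Lcn2 at 21 and 6.51 CPM. Levels were lower in the cluster led by Dcpp3, Dcpp2 and Lipf, at 0.310 CPM of Hp and 2.96 CPM of Lcn2. The cluster led by Tff2 and Muc5b had 0.957 CPM of Hp and 1.77 CPM of Lcn2. Which cells of the gland class carried the higher Hp and Lcn2 was not tested. The Lyve1 and Mmrn1 cells also had more Lcn2 in the knockout ventral library, 2.17 times the control level (2.08 to 2.26), although the labels place the Cre in cells that express P63. In that class 4.83% of 8849 genes were higher and 4.44% lower, and of the 5 measured members Lcn2 was higher and Reg3g, at 0.457 (0.347 to 0.599), lower.

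In dorsal hillock cells 6 members were higher in the knockout library (7.60% of 12532 genes) and 0 lower (14.3%). Slpi had 25.0 CPM in knockout and 5.58 CPM in control cells, a ratio of 4.48 (3.73 to 5.39), and Hp 47.2 CPM in knockout and 22.0 CPM in control cells, a ratio of 2.14 (1.92 to 2.38). Sftpa1, Pigr and Lyz2 lay between 1.58 and 1.99, and Lcn2 rested on 51 knockout and 4 control UMIs. Ltf was at 0.700 (0.694 to 0.705) of the control level, inside the threshold.

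Ciliated cells had more Pigr in the knockout libraries, at 2.45 times the control level dorsally (2.19 to 2.74) and 2.09 ventrally (1.89 to 2.32). Their Lyz2 was at 1.41 (1.39 to 1.43) dorsally, inside the threshold, and 1.58 (1.55 to 1.61) ventrally. Reg3g was higher in knockout dorsal ciliated cells, at 1.56 (1.53 to 1.60), where it was below the control level in secretory and basal cells, and ventrally it was at 0.948 (0.936 to 0.960). Of the members with 50 UMIs, 3 of 8 were higher and 2 lower dorsally (5.20% and 12.7% of 12659 genes), and 4 of 10 were higher and 1 lower ventrally (3.61% and 5.36% of 12182 genes). The lower ones were Ltf, at 0.292 (0.252 to 0.337) dorsally and 0.543 (0.483 to 0.608) ventrally, and Sftpa1 at 0.410 (0.109 to 1.10) dorsally, which rested on 4 knockout and 66 control UMIs.

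The regions were compared within each genotype. Dorsal and ventral comparisons of the 2 genotypes use different libraries, and each shares its libraries with the genotype comparisons above. In secretory cells of control tissue 4 members were higher dorsally (5.78% of 15342 genes) and 6 higher ventrally, that is lower dorsally (19.4%). In knockout tissue 2 were higher (4.79% of 14224 genes) and 5 lower dorsally (20.6%). The dorsal ones in both were Sftpd, at 1.52 (1.49 to 1.55) in knockout and 1.79 (1.75 to 1.82) in control tissue, and Hp, at 1.85 (1.80 to 1.90) in knockout and 2.32 (2.25 to 2.40) in control tissue. Ltf, at 1.41 in knockout and 2.57 in control tissue, and Lyz2, at 1.26 and 1.57, passed 1.5-fold in control but not in knockout tissue, and the difference between genotypes was not tested. Ltf in knockout tissue passed it with 95th percentile gates (1.61), size factors (1.65) and the total without Scgb1a1, Scgb3a1, mitochondrial and haemoglobin UMIs (1.51), and in control tissue fell to 1.37 with clusters as classes. Lyz2 in control tissue fell to 1.48 with gate thresholds doubled. In secretory cells with Scgb1a1 above Scgb3a1, Ltf stood at 2.21 in knockout and 2.80 in control tissue. With cells under 10000 UMIs left out, an alternative chosen after seeing the data, Sftpd in knockout tissue stood at 1.48.

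The genes lower in dorsal secretory cells of both genotypes were Sftpa1, Reg3g, Lcn2, Pigr and Pglyrp1. Pigr in knockout tissue, at 0.643, was inside the threshold under the same 3 alternatives that raised Ltf, at 0.692 to 0.754. Sftpa1 was at 0.202 of the ventral level in knockout (0.198 to 0.205) and 0.458 in control tissue (0.451 to 0.464). Reg3g was at 0.315 (0.313 to 0.316) in knockout and 0.404 (0.403 to 0.405) in control tissue. Since ventral secretory cells include many with Scgb3a1 at or above Scgb1a1, the ratios were also taken in cells with Scgb1a1 above Scgb3a1. There Sftpa1 was at 0.155 in knockout and 0.361 in control tissue, and Reg3g at 0.374 and 0.426, so their lower dorsal level held within that kind of cell. Pigr in those cells was at 0.701 in knockout and 0.679 in control tissue, inside the threshold. Sftpd, at 1.41 in knockout and 1.39 in control tissue, and Hp, at 1.24 and 1.39, were inside it as well. In control cells with Scgb3a1 at or above Scgb1a1, of which dorsal tissue held 51, Sftpa1 ran the other way, at 842 CPM in dorsal and 537 CPM in ventral cells, and Reg3g was at 1.29 (1.27 to 1.30).

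**Figure D5:**
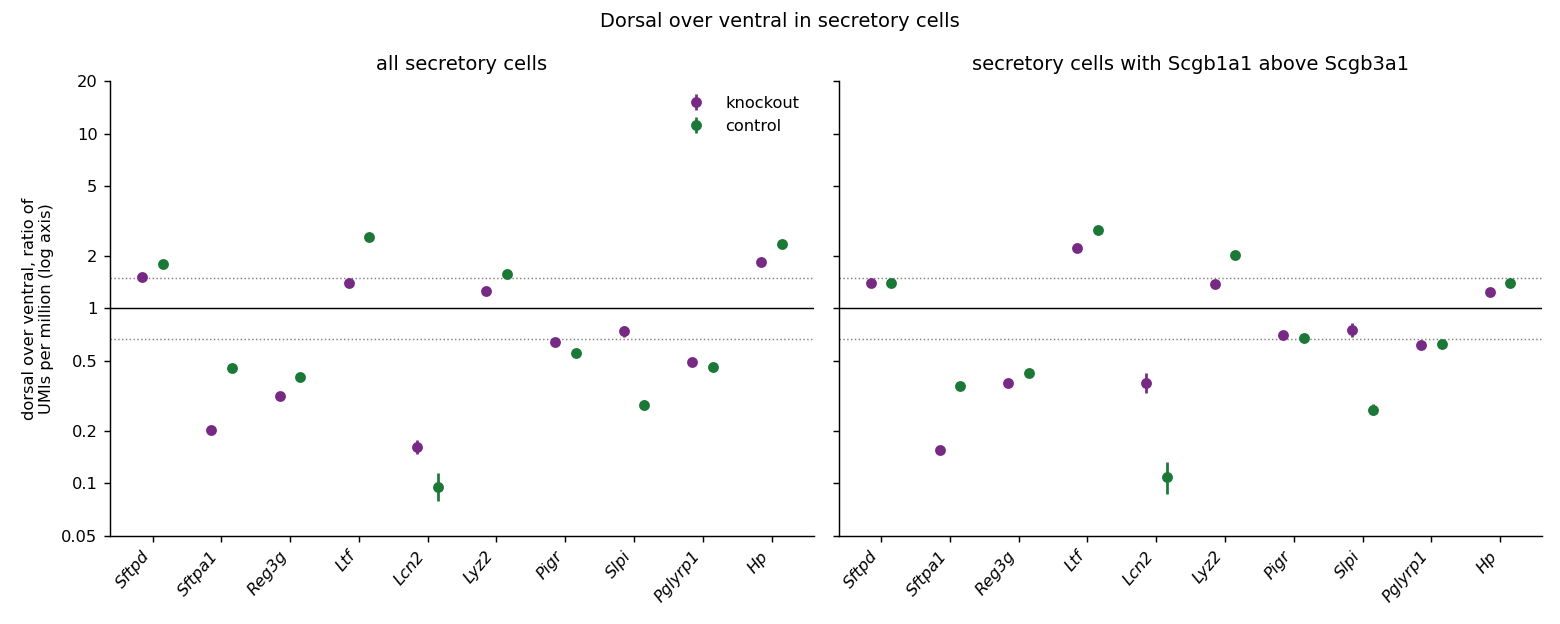
Ratio of dorsal to ventral level (log axis) of each gene in all secretory cells and in those with Scgb1a1 above Scgb3a1, in knockout and control tissue, with 95% conditional binomial intervals for counting error; dotted lines mark 1.5-fold either way. Sftpa1, Reg3g, Lcn2 and Pglyrp1 lie below the lower line in both panels and both genotypes, and Sftpd and Hp lie above 1 throughout.

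In basal cells no member was higher dorsally in knockout tissue (7.25% of 13107 genes were) or control tissue (7.15% of 13759), while 6 were lower in knockout (21.1%) and 5 in control tissue (15.7%). Sftpa1, Reg3g, Lcn2, Pigr and Slpi were the 5 lower in both genotypes, and Ltf was the sixth in knockout tissue. Slpi was at 0.379 (0.342 to 0.419) of the ventral level in knockout and 0.219 (0.190 to 0.251) in control tissue, and fibroblasts had 0.247 (0.214 to 0.284) and 0.335 (0.288 to 0.387). The fibroblast levels of Reg3g (0.195 and 0.631) and Pigr (0.115 and 0.419) were lower dorsally as well, and with the fibroblast level subtracted Pigr in knockout basal cells stood at 0.969. Sftpd did not share the dorsal rise of secretory cells, with 1.15 (1.09 to 1.21) in knockout and 1.11 (1.05 to 1.18) in control basal cells.

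A wider list of host defence genes was read in the same comparisons. Of 46 listed, 28 were measured in dorsal secretory cells, where 3 were higher and 10 lower in the knockout library (median log2 ratio -0.35), against 7.33% higher and 16.0% lower of all genes (median -0.14), and 31 in ventral secretory cells, where 6 were higher and 9 lower (median 0.01), against 3.52% and 6.34% of all genes (median -0.03). The 6 with the highest levels in secretory or gland cells were Bpifa1, Dcpp2, Dcpp3, Lyz1, Wfdc2 and Dcpp1. Bpifa1, a surface-active airway protein, had 179690 CPM in knockout and 154488 CPM in control dorsal secretory cells and 203381 CPM in knockout and 174273 CPM in control ventral ones, above every member. Wfdc2, a small secreted protein with antiprotease-type domains, had 8480 CPM in knockout and 10932 CPM in control dorsal secretory cells. Dcpp2 in ventral gland cells was at 0.349 of the control level (0.348 to 0.350) and Dcpp3 at 0.768 (0.767 to 0.770), against the 1.11 of Ltf.

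Of 15 listed regulators of these genes, among them cytokine receptors and factors of the NF-kB, STAT3 and C/EBP families, 15 were measured. In dorsal secretory cells 0 were higher and 6 lower in the knockout library, with a median log2 ratio of -0.52, against 7.33% and 16.0% of all genes and a median of -0.14. The median was -0.61 in dorsal basal cells, -0.49 in dorsal hillock cells and -0.57 over the 13 measured in dorsal fibroblasts, where all genes had -0.12, -0.11 and -0.15. Dorsal ciliated cells stood nearer to all genes, with a median of -0.18 against -0.11. There 1 of 14 measured was higher and 2 were lower (5.20% and 12.7% of all genes). In ventral secretory cells 0 were higher and 0 lower. Of 6 glucocorticoid-responsive genes, 2 were higher and 1 lower in dorsal secretory cells (7.33% and 16.0% of all genes). In ventral secretory cells 2 were higher and 0 lower (3.52% and 6.34%). In dorsal basal cells 2 were higher and 2 lower (8.82% and 17.5%), and in ventral basal cells 2 higher and 0 lower (2.86% and 4.58%). Their median log2 ratios were 0.26, 0.40, 0.10 and 0.29 in that order, against -0.14, -0.03, -0.12 and -0.01 over all genes. In ciliated cells 1 was higher and 0 lower dorsally (5.20% and 12.7%), and 0 were higher and 0 lower ventrally (3.61% and 5.36%). The medians of the 6 genes there were 0.04 and -0.03, against -0.11 and -0.02 over all genes. Fkbp5 stood at 1.91 (1.71 to 2.13) times the control level in dorsal and 2.18 (1.86 to 2.57) in ventral secretory cells, and fibroblasts, which the labels do not place under the Cre, had 1.85 (1.69 to 2.03) dorsally and 1.97 (1.86 to 2.10) ventrally. Tsc22d3 in basal cells was at 3.13 (3.03 to 3.24) dorsally and 1.74 (1.68 to 1.80) ventrally, and in fibroblasts at 2.11 (2.05 to 2.18) dorsally and 1.63 (1.58 to 1.68) ventrally. The part of these changes, which not all 6 genes shared, in the members' ratios was not tested.

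The start regions of the members were read from RefSeq (GRCm38.p6), where 8 of the 10 had a window, to show the letters upstream of genes with different responses. Textbook motifs of 4 factors were searched on both strands in the 250 bases before the start. ACANNNTGT, the core bound by the glucocorticoid receptor, was in 3 of the 8 windows and in 5.84% of 32851 windows of all genes. The NF-kB site of the immunoglobulin kappa enhancer was in 1 of the 8 and in 0.140% of all. TTGCGCAA, a C/EBP site, was in 0 of the 8 and 0.164% of all, and TTCNNNGAA, a STAT site, in 0 of the 8 and 7.02% of all. The 4 windows with a match are printed with the matched letters in capitals.
Lcn2 (chr2:32387740-32387989, minus strand): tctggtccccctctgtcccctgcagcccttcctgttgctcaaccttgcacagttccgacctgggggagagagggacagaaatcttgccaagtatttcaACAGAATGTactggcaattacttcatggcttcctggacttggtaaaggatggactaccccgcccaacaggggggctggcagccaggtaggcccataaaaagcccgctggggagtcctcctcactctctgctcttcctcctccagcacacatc
Lyz2 (chr10:117282273-117282522, minus strand): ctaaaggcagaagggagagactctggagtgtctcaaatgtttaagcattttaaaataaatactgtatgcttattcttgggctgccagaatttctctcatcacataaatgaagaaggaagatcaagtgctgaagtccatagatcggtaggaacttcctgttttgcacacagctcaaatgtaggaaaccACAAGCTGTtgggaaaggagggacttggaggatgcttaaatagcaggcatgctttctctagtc
Pigr (chr1:130826434-130826683, plus strand): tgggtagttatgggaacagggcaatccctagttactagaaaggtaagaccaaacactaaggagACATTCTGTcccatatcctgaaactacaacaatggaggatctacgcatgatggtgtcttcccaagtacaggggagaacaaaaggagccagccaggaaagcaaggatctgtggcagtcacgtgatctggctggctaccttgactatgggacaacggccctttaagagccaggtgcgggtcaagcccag
Pglyrp1 (chr7:18884440-18884689, plus strand): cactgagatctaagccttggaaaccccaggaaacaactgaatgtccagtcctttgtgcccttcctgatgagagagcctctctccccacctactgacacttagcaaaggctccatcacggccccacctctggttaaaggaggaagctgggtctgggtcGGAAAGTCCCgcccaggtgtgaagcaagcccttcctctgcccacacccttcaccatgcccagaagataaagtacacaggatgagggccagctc
The match lies 152 bases before the start of Lcn2, 63 before that of Lyz2 and 187 before that of Pigr, and 93 before that of Pglyrp1, where the capitals are the reverse complement of the kappa site. No 2 matches overlap. These matches describe the letters of the windows and do not show binding.

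The genes whose levels over classes and libraries were most like those of each member were ranked by Pearson's r of log2(CPM + 1) over 25 points of class and library, among 6891 genes. The points share libraries and classes, so r is a description. Reg3g was most like Fcgbp (0.97), a mucus protein that binds IgG, and then Pigr (0.95). Sftpa1 was most like Pon1 (0.96) and Bpifa1 (0.91), Ltf like Kcne3 (0.92) and the airway mucin Muc5b (0.91), and Pglyrp1 like Agr2 (0.96). Hp was most like Sftpd (0.89), a fellow member, and Sftpb (0.89). Lcn2 and Slpi had no close match over these points, with highest values of 0.71 and 0.73. The points leave out cells that met no gate, among them the Lyve1 and Mmrn1 cells that held most Lcn2. A match that rests on such cells could therefore not be seen.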

How the data were processed

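The libraries were made with the Chromium GEM-X 5′ v3 kit after papain digestion, per the labels' protocols. The authors deposited raw UMI counts per gene and barcode, made with Cell Ranger 10.0.0 on GRCm39, per the submitters' processing notes. Neither the gene annotation nor the settings for calling cells are stated in those sources.

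A barcode was kept if it had 500 or more genes and no more than 15% of its UMIs from mitochondrial genes. Scrublet (scanpy 1.11.5) doublets were removed, 56 in the knockout dorsal and 276 in the control dorsal library at its automatic threshold. In the ventral libraries, where that call marked under 0.5%, a rate of 0.4% per 1000 barcodes removed 181 knockout and 380 control cells. A marker gate needed at least 2 UMIs (1 for Trp63) and a share of the cell's UMIs above the 99th percentile of that gene in cells that should lack it. A cell meeting several gates was gland, then ciliated, hillock, basal or secretory. Cells meeting epithelial and other gates (52 to 210 per library), or both basal and secretory gates (26 to 68), stood apart.

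UMIs were summed per class and library (classes of at least 50 cells) and given as CPM with exact Poisson intervals. Ratios have conditional binomial and shares Clopper-Pearson intervals at 95% (scipy 1.17.1). Reads are 5′ tags, so CPM needs no length correction. Secretory levels of 100 CPM or more had half-intervals of at most 2.60%. The code for intervals and calls was tested on simulated counts.

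The members and lists were chosen with earlier results of these data known. Named genes were the members, the 6 listed host defence genes with the highest level, and the most correlated genes per member. Other genes and the Lyve1 and Mmrn1 group were chosen after values were seen.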

Additional observations from a re-analysis of the deposited data

Results flagged for a closer look

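Sftpa1 in the full ciliated class stood at 1.92 times the control level in knockout dorsal cells and at 0.346 times the control level in knockout ventral cells, on opposite sides of 1 and both past 1.5-fold. The difference between the regions was not tested. The levels were 118 CPM in 129 knockout and 61.5 CPM in 1343 control dorsal cells, and 5.72 CPM in 194 knockout and 16.6 CPM in 507 control ventral cells. Scgb1a1 in the same cells was 49226 CPM in knockout and 25323 CPM in control dorsal tissue, and 311 CPM in knockout and 872 CPM in control ventral tissue. Without ciliated cells that also met a secretory gate, Sftpa1 rested on 4 knockout and 66 control dorsal UMIs and on 26 knockout and 37 control ventral UMIs, and the ratios were 0.410 (0.109 to 1.10) and 1.23 (0.717 to 2.09).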

How the results depend on the processing

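No paired analysis was possible because each group was a single library. Of 160 recounts of called members, 14 moved by over 1.5 times. In dorsal secretory cells, members higher in the knockout library numbered 4 instead of 2 under size factors and with Scgb1a1, Scgb3a1, mitochondrial and haemoglobin UMIs left out of the total, and 0 instead of 1 were lower under size factors. With the fibroblast level subtracted, 1 instead of 0 members, Slpi, was lower in ventral knockout secretory cells. Ventral fibroblasts held Slpi at 94.7% of the secretory level in knockout and 58.4% in control tissue, above another class outside the epithelium. For Slpi this subtraction therefore cannot be read as removing free RNA alone. In dorsal basal cells 1 instead of 2 members were lower in the knockout library with gates from the 95th percentile and with the fibroblast level subtracted. In ventral basal cells the lower members, 0 in the main analysis, numbered 1 with gate thresholds doubled, 2 with 95th percentile gates, 1 with fibroblast levels subtracted and 1 with cells meeting both gates counted as basal, and the higher ones 8 instead of 5 with clusters as classes. Members higher in dorsal than ventral control basal cells, 0 in the main analysis, numbered 1 with fibroblast levels subtracted and 2 with cells meeting both gates counted as basal. With cells of at least 10000 UMIs, 1 instead of 2 members was higher in dorsal than ventral knockout secretory cells. Sftpa1 in dorsal basal cells reversed, to 0.840 with clusters as classes, and 327 of 793 recomputed member ratios left the counting interval of the main one. The class with the highest level was kept for 3 of 10 members in knockout and 4 of 10 in control dorsal tissue with 95th percentile gates, as the dorsal Dmbt1 class then passed 50 cells. Size factors were not used to compare classes. For these changes the cause was not tested except where named. Of 80 shares of secretory cells, 74 left their interval when thinned to 2000 UMIs or not thinned, so shares are read at 5000 UMIs. Levels under about 10 CPM rest on few UMIs in small classes, such as the 34 of Sftpa1 in knockout ventral ciliated cells. In large classes they rest on more, such as the 578 of Lcn2, at 8.68 CPM, in knockout dorsal secretory cells.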

Other observations

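Pglyrp1 was also measured outside the epithelium. In cells with Lyve1 and Mmrn1 UMIs it had 304 CPM in knockout and 236 CPM in control ventral tissue, against 30.5 CPM in knockout and 45.1 CPM in control fibroblasts, and 65.9% of these knockout and 56.3% of these control cells had a UMI at 5000 UMIs per cell. A cluster led by immunoglobulin light chain genes and Jchain, of 695 cells, held Pglyrp1 at 1228 CPM. A cluster led by Gnat3 had 6508 CPM of Ltf. These groups were singled out after their values were seen.

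Itln1, an intelectin of the host defence list, was nearly absent from the knockout libraries, with 11.7 CPM in knockout and 906 CPM in control dorsal secretory cells, and 11.4 CPM in knockout and 1404 CPM in control ventral secretory cells. It was chosen after its values were seen.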
